A study of Saccharomyces cerevisiae with 59 samples.

Results

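The 10 min interval in which budding yeast cells passed from G1 into their first S phase after pheromone release was examined in 4 tables of per-gene values. The column for 20 min was set against the column for 10 min for all 5590 genes listed. These columns rest on 8 of the 59 libraries of the series, with MNase-seq and total RNA-seq of 2 biological replicates at each time. Cells of mating type MATa in the W303 background carried the alleles ade2-1, his3-11,15, can1-100 and the double mutation of leu2-3 with leu2-112, a disrupted BAR1 (BAR1::TRP) and a cassette for BrdU uptake (URA3::BrdU-Inc). All samples carried these alleles, so that no strain comparison was made. Cultures were grown in YPD medium at 30 °C, held in G1 with the mating pheromone α-factor at 50 ng/mL for 2 h, washed and released into fresh medium. The aligned 10 and 20 min columns combine replicate 1, sampled 10 min later by its labels, with replicate 2. One MNase-seq library of replicate 2 at 10 min is described both as taken prior to release and as released. Its time label decided its place.

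Because each column merges the replicates, every value below is the authors' merged value for a time point. No standard deviation, no test and no n over cultures can be given, and differences are described against all genes and against another pair of columns. That pair is 70 and 80 min, which the study's alignment places at the next entry into S phase, and it shares no library with 10 and 20 min. The RNA values are called TPM in the study, but the column sums over the 5590 genes ran from 949828 to 1041385. They give the share of RNA from a gene, and a lower share of expressing cells and less RNA in each cell cannot be told apart. The labelled mating type was checked in the RNA: the a-cell receptor gene STE2 was at 425 at 10 min and 332 at 20 min, whereas the 4 α-cell markers summed to 18.5 and 17.1, nearly all of it SAG1 (16.7 and 15.3). The disrupted BAR1 was between 1.38 and 3.12 in all 15 columns.

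In late G1, the transcription factors SBF and MBF turn on G1 cyclins, S phase cyclins and genes for DNA synthesis. S phase cyclin kinase then fires the origins that were licensed by loading the MCM helicase in G1, and histone genes are induced so that new DNA can be packaged. The forkhead factors and Mcm1 take over later, with the mitotic cyclins, the transcription factor Swi5 and the polo kinase Cdc5 among their targets. Pheromone-induced genes are shut off once the pheromone is removed.

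Few transcripts changed strongly over the interval. At a pseudocount of 1, 18 genes (0.322% of the 5590) were at least 2-fold higher at 20 than at 10 min, and 33 (0.59%) were at least 2-fold lower. At 1.5-fold these counts were 57 (1.02%) and 150 (2.68%). At any size, 41.4% of all genes were higher and 58.4% lower, the shares against which the counts of lists below are to be read. The median size of the log2 change was 0.12. For the step before, 0 to 10 min, it was 0.34, with 538 genes higher and 244 lower, and for the step after, 20 to 30 min, it was 0.12, with 25 higher and 35 lower. These steps share the 10 or the 20 min column with the interval described here. The step from 0 to 10 min spans 20 min in replicate 1, so its counts are not those of an equal interval. In the interval from 70 to 80 min, 8 genes (0.143%) were 2-fold higher and 5 (0.0894%) were 2-fold lower. At the edge of the 2-fold limit, YHP1 (log2 change 1.01) was counted and HTB2 (0.98) was not, and on the lower side CHA1 (-1.001) was counted and MFA1 (-0.99) was not.

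Core histone genes made up 5 of the 18 genes that were at least 2-fold higher. All 8 core histone genes were higher at 20 min, with a median log2 change of 1.06 against -0.03 over all genes. Together they made up 0.958% of the summed RNA at 10 min and 1.87% at 20 min, after 0.203% at 0 min. HTA2, which encodes H2A, was at 52.8, 740, 1889 and 2245 at 0, 10, 20 and 30 min. The log2 change of HTA2 from 10 to 20 min was 1.35, and its value at 20 min was still below that at 30 min. The H2B gene HTB1 went from 1187 to 2612 (log2 change 1.14) and the H4 gene HHF1 from 1257 to 2738 (1.12). HTA1 (932 to 1965) and the H3 gene HHT1 (960 to 1983) changed by 1.08 and 1.05. Unlike HTA2, these 4 genes had their highest value of the 15 time points at 20 min.

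The copies differed in size of change. HHT2 (1561 to 2597, log2 change 0.73) and HHF2 (1760 to 2850, 0.69), which share a promoter on chromosome XIV, changed less than HHT1 and HHF1 on chromosome II. At 0 min, HHT2 and HHF2 already stood at 777 and 399, above the 211 and 91.3 of HHT1 and HHF1. How alike the coding sequences of these copies are was not measured here, so whether reads were shared between them is not known. HTZ1, the gene of the H2A variant H2A.Z, went from 83.9 to 138 (0.72), and the linker histone gene HHO1 from 102 to 146 (0.51). The histone chaperone genes went the other way in 12 of 13 cases (median -0.19). None passed 2-fold, and SPT21, an activator of histone gene transcription, had the lowest change (57.4 to 33.2, log2 change -0.77).

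**Figure D1:**
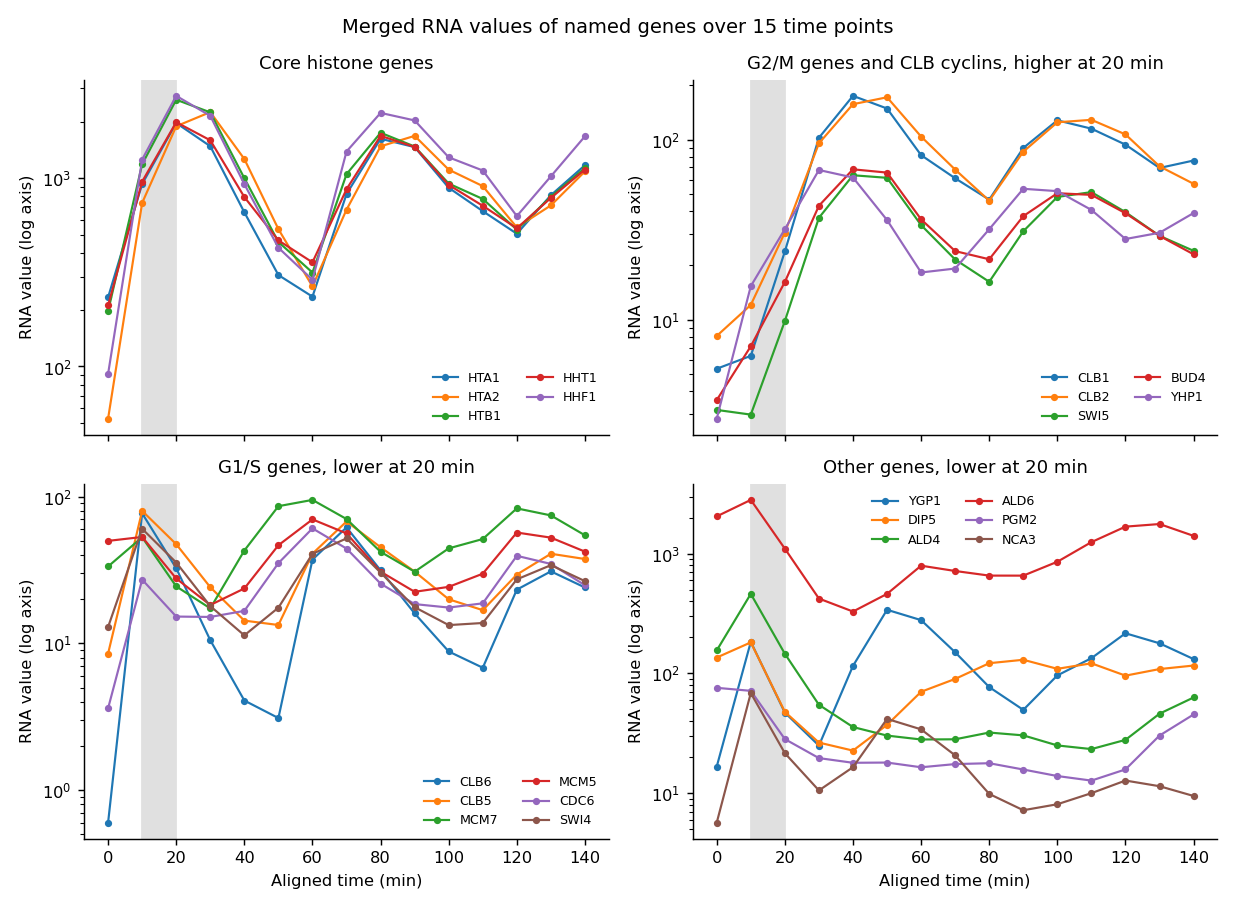
Merged RNA values (log axis) of named genes against aligned time in min, 1 line per gene, with the 10 to 20 min interval shaded. The histone genes peak at 20 or 30 min and again at 80 or 90 min, CLB1, CLB2, SWI5 and BUD4 keep rising to 40 or 50 min, and CLB6 falls from 76.9 at 10 min to 32.5 at 20 min.

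The genes of the B-type cyclins, which direct the cyclin-dependent kinase Cdc28 in S phase and mitosis, changed in opposite directions within the interval. CLB6, an S phase cyclin gene, had values of 0.600, 76.9, 32.5 and 10.5 at 0, 10, 20 and 30 min, and a log2 change of -1.22. Its partner CLB5 went from 79.9 to 47.4 (-0.74). Both S phase cyclin genes had their highest value of the 15 time points at 10 min. The mitotic cyclin gene CLB1 was at 5.34, 6.29, 23.9 and 102 at 0, 10, 20 and 30 min, with a log2 change of 1.77. CLB2 went from 12.1 to 30.5 (1.27). CLB3 (56.4 to 67.8) and CLB4 (25.9 to 32.8) changed by 0.26 and 0.33. CLB1 and CLB2 started from low values and at 20 min were still below CLB5 and CLB6. They went on to 102 and 95.3 at 30 min.

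CLB1 and CLB6 are neighbours on chromosome VII that are transcribed towards each other, with CLB1 coding from 703636 to 705051 on the forward strand and CLB6 from 705359 to 706501 on the reverse strand (R64). Their annotated transcript ends lie 32 bases apart. The library kit kept the strand, and the pair was read in opposite directions: CLB1 was 3.41-fold higher and CLB6 was 2.33-fold lower at 20 min, on the scale of value plus 1.

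Most other genes of the forkhead and Mcm1 program were also higher. Among 15 G2/M genes, 10 were higher and 5 lower (median 0.22), with 2 past 2-fold. SWI5, which encodes the transcription factor of late mitosis and early G1, was at 3.15, 2.97, 9.83 and 36.8 at 0, 10, 20 and 30 min (log2 change 1.45). BUD4, a bud site gene, went from 7.11 to 16.2 (1.08). CDC5, the polo kinase gene, went from 15.1 to 26.9 (0.80). CDC20, SPO12 and DBF2, which act in anaphase and mitotic exit, were lower (-0.42, -0.46 and -0.58). KIN3 (-0.42) and MYO1, the myosin gene of the bud neck (-0.13), were the other members that were lower. YMR001C-A, next to CDC5 on the same strand, went from 3.38 to 10.1 (1.34).

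The genes of the transcription factors were mixed, with 9 of 14 higher and 5 lower (median 0.17). YHP1, a repressor of the Mcm1 box genes, went from 15.3 to 31.8 (log2 change 1.01). FKH1 (36.7 to 66.6, 0.84), FKH2 (22.0 to 29.4, 0.40) and NDD1, their coactivator (29.9 to 41.6, 0.46), were all higher. SWI4, the DNA-binding subunit of SBF, went from 60.4 to 35.6 (-0.75), whereas MBP1 of MBF (23.3 to 26.9) and their shared partner SWI6 (39.5 to 45.5) changed by 0.20 each. STB1, which encodes a binding partner of Swi6, was lower (-0.59) and the MBF corepressor gene NRM1 higher (0.34). The forkhead gene HCM1 was lower (-0.16), and MCM1 (-0.03), WHI5 (0.15), TOS4 (-0.09) and PLM2 (0.13) had small changes. Of the 29 spindle and kinetochore genes, 24 were higher (median 0.17) and none passed 2-fold. Their largest change was that of NUF2, an outer kinetochore subunit gene (11.4 to 18.3, 0.64).

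Among the genes that prepare replication, those of the MCM helicase and CDC6 were lower, while most of the origin recognition complex were not. MCM2 to MCM7 were all lower, by log2 changes from -0.60 to -1.08 (median -0.84), and all 6 passed 1.5-fold, against 2.68% of all genes. MCM7 had the largest change, with 33.4, 52.9, 24.5 and 17.3 at 0, 10, 20 and 30 min. Unlike CLB5 and CLB6, MCM7 did not have its highest value at 10 min. MCM7 and MCM2 were highest at 60 min, at 95.0 and 65.1. MCM5 went from 53.1 to 27.7 (-0.92) and CDC6, the loader of the helicase, from 27.2 to 15.2 (-0.80). The loader subunit gene TAH11, which encodes Cdt1, did not share this (42.3 to 47.4, 0.16). Of ORC1 to ORC6, 5 were higher (median 0.06), ORC1 by 0.35, and ORC4 was lower (-0.12).

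Genes for the firing of origins and for DNA synthesis changed less. Of 12 firing genes, 10 were lower (median -0.14), with SLD2 (43.2 to 30.5, -0.49) and CDC45 (74.8 to 55.9, -0.41) at the low end. Of 23 DNA synthesis genes, 17 were lower (median -0.12), with POL12, the second subunit of polymerase alpha, lowest (74.2 to 50.0, -0.56). The 8 genes of nucleotide synthesis did not share a direction, with 4 higher and a median of 0.01. Among them, RNR1, the large subunit of ribonucleotide reductase, went from 806 to 604 (-0.42), and DUT1, the dUTPase gene, changed by 0.26. The cohesin list had 11 of 13 lower (median -0.24), led by ECO1, the cohesin acetyltransferase gene (34.0 to 22.5, -0.58), and the repair list had all 10 lower (median -0.32), led by EXO1, a DNA exonuclease gene (66.0 to 43.6, -0.59). No gene of these lists passed 2-fold.

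The G1 cyclin and SBF target genes were mixed. Of 17, 11 were lower and 6 higher (median -0.13), a split near that of all genes, and none passed 1.5-fold. CLN2, a G1 cyclin gene, went from 194 to 137 (log2 change -0.50) and YOX1, a repressor related to YHP1, from 106 to 71.4 (-0.56). EXG1, a cell wall glucanase gene, was higher (553 to 809, 0.55). MSA2, a regulator of SBF and MBF promoters that was named after its values were seen, went from 32.5 to 13.8 (-1.18), so that its change was closer to that of CLB6 than to that of CLN2.

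**Figure D2:**
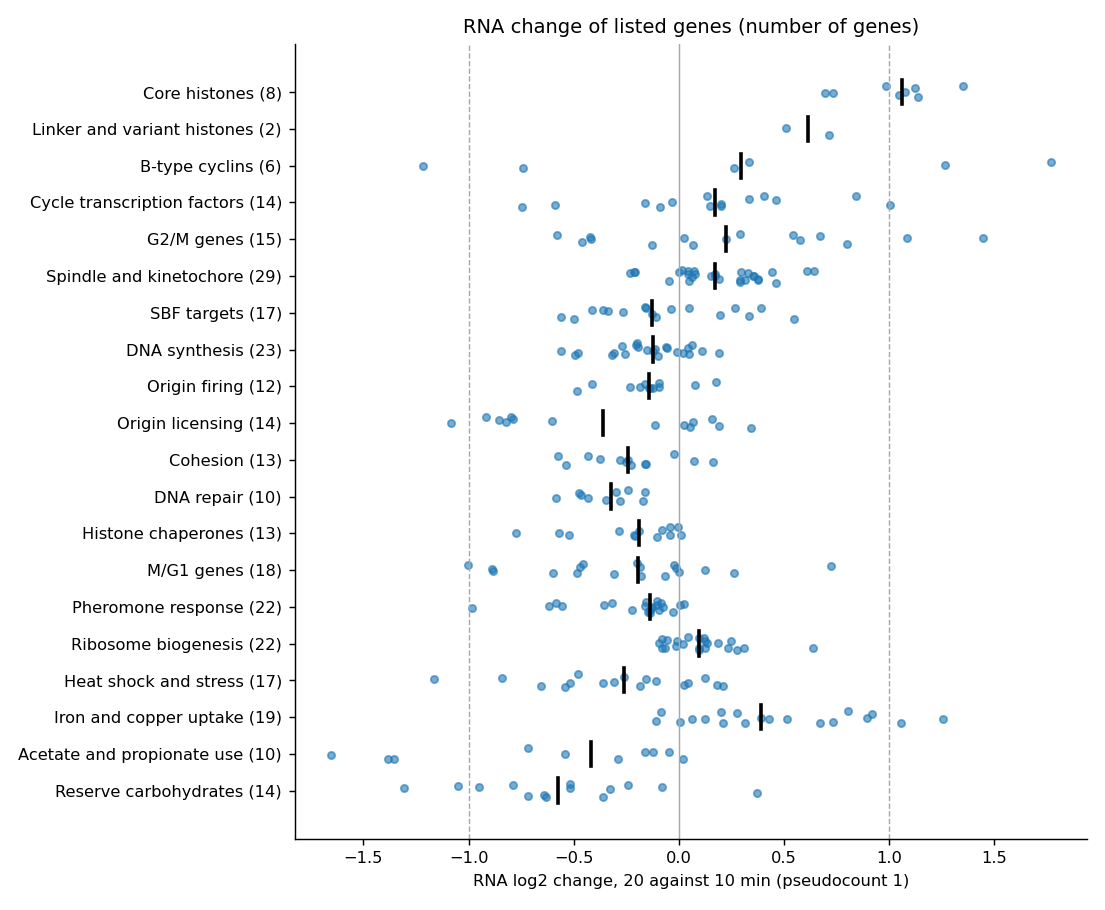
RNA log2 change from 10 to 20 min (x axis, pseudocount 1) of the genes of each list, 1 point per gene, with the list median as a black bar, the line of no change in grey and 2-fold limits dashed. All 8 core histone genes lie right of 0.69, and the origin licensing list separates into the MCM genes with CDC6 on the left and the origin recognition genes near 0.

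Sequences before the transcript starts are shown for some genes of each direction. Forkhead elements are known from G2/M promoters and the MCB and SCB elements from G1/S promoters. Every window shown holds a match to one of these elements, so the windows do not stand for their groups, most of which have none. HHF1 is a histone gene and not a member of the G2/M list. The windows are the 250 bases before the transcript start given in the tables, read from the S288C reference R64 and written 5′ to 3′ on the strand of the gene. W303 may differ from this reference. In the windows of the 4 genes that were higher, capitals mark the forkhead core TAAACAA or its reverse complement TTGTTTA. They lie at chrIV:750907-751156 for SWI5 (reverse strand), chrX:598435-598684 for BUD4 (forward), chrIV:1362235-1362484 for YHP1 (reverse) and chrII:255724-255973 for HHF1 (reverse).
SWI5: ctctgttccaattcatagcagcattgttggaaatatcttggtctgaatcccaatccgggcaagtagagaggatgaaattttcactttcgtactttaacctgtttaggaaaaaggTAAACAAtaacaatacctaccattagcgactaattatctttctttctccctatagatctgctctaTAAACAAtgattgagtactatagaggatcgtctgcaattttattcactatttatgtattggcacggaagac
BUD4: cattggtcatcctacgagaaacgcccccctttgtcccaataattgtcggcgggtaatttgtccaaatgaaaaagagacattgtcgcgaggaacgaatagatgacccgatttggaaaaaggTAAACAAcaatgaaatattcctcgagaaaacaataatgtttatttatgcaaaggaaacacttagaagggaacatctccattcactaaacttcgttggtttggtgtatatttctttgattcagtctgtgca
YHP1: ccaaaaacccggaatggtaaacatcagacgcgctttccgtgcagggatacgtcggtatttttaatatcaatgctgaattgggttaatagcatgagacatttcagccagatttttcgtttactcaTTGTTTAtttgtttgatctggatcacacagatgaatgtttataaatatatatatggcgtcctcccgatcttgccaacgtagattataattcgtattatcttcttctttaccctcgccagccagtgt
HHF1: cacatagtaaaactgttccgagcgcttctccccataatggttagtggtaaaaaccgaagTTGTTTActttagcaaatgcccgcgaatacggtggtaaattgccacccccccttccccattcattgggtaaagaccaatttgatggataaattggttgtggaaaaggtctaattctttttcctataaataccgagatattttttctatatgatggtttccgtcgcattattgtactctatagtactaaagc
SWI5 has 2 matches, starting 136 and 71 bases before the transcript start. The match in BUD4 starts 130 bases before it, that in YHP1 126 bases and that in HHF1 191 bases.

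For genes that were lower, the window of CDC6 (chrX:69028-69277, forward strand) is shown with the MCB element ACGCGT in capitals, and that of MCM7 (chrII:625493-625742, forward strand) with the SCB element CACGAAA.
CDC6: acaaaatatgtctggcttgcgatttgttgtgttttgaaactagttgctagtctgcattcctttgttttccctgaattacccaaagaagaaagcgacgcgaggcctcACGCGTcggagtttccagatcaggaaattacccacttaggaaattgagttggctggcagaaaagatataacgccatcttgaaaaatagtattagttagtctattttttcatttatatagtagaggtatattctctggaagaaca
MCM7: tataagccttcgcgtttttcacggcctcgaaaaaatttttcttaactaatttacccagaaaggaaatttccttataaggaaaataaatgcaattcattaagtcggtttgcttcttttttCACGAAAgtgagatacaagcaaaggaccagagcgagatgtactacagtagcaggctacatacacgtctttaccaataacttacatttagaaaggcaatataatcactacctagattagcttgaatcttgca
The MCB element starts 144 bases before the transcript start of CDC6 and the SCB element 131 bases before that of MCM7. CDC6 was at least 1.5-fold but not 2-fold lower. The RNA of MCM7 was highest at 60 min and not at 10 min, and whether its SCB match has a function was not tested.

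TAAACAA occurred on either strand in 618 of all 5590 windows (11.1%). It was in 6 of the 18 windows of genes at least 2-fold higher (33.3%), namely HHF1, HTB1, SWI5, YHP1, BUD4 and AIM34, and in 0 of the 33 of genes at least 2-fold lower. At 1.5-fold it was in 16 of 57 (28.1%) and 4 of 150 (2.67%). ACGCGT, which is its own reverse complement, was in 207 of all windows (3.7%), in 0 of the 18 and 1 of the 33 (3.03%) at 2-fold, and in 0 of the 57 and 12 of the 150 (8.0%) at 1.5-fold. CACGAAA was in 235 of all windows (4.2%), in 0 of the 18 and 2 of the 33 (6.06%, MCM7 and PGM2), and in 1 of the 57 (1.75%) and 4 of the 150 (2.67%). For both elements the lower genes were thus above all windows at one limit and below at the other. The element TGAAACA of the pheromone factor Ste12 (6.14% of all windows) was in 0 of the 18 and 2 of the 33 (6.06%), and in 2 of the 57 (3.51%) and 5 of the 150 (3.33%). CLB1 and CLB2 have no TAAACAA in this window, and CLB5 and CLB6 have neither ACGCGT nor CACGAAA. These are matches of letters in a fixed window and do not show that a factor was bound.

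Outside the cell cycle lists, the largest falls were those of genes for metabolic, cell wall and secreted proteins. YGP1, which encodes a secreted glycoprotein induced on nutrient limitation, had the largest fall, with 16.7, 184, 47.0 and 24.9 at 0, 10, 20 and 30 min (log2 change -1.94). DIP5, an amino acid permease gene, was at 136, 182, 47.7 and 26.4 (-1.91). The 2 genes differed in the step before, in which YGP1 was much higher at 10 than at 0 min and DIP5 little. NCA3, a gene of the SUN family, was at 5.66, 68.6, 21.5 and 10.5 (-1.63), and SPI1, a cell wall protein gene, at 31.6, 141, 47.6 and 28.4 (-1.55).

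Enzymes of acetate and propionate use and of glycogen and trehalose were prominent. ALD6, the cytosolic aldehyde dehydrogenase gene, went from 2822 to 1104 (log2 change -1.35) and was at 423 at 30 min. ALD4, its mitochondrial counterpart, went from 462 to 146 (-1.66) and PDH1, of the propionate pathway, from 41.6 to 15.3 (-1.38). In a list of 10 such genes put together after the values were seen, 9 were lower (median -0.42). PGM2, a phosphoglucomutase gene, went from 71.5 to 28.3 (-1.31) and GSY2, a glycogen synthase gene, from 41.8 to 19.6 (-1.05). In a list of 14 reserve carbohydrate genes, also put together after the values were seen, 13 were lower (median -0.57) and 7 passed 1.5-fold. Of 17 heat shock and stress genes, 12 were lower (median -0.26, against 58.4% and -0.03 for all genes), with the stress gene DDR2 lowest (40.5 to 17.5, -1.16). NCE103, the carbonic anhydrase gene (395 to 150, -1.39), and the genes YNR034W-A (110 to 35.6, -1.60) and YJL133C-A (181 to 68.5, -1.39) complete the 12 largest changes with CLB6.

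The 33 genes that were lower continued in that direction, with all 33 lower at 30 than at 20 min (64.9% of all genes), and 23 of them had their highest value of the 15 time points at 10 min. Of all genes, 868 had their highest value at 10 min. The 33 genes were picked for a 10 min value above that at 20 min, which favours a highest value at 10 min. These counts therefore cannot be compared. Of the 18 genes that were higher, 14 were higher still at 30 min (35.0% of all genes).

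Genes of the pheromone response were lower in 20 of 22 cases, by a median of -0.14, and none passed 2-fold. MFA1, which encodes the a-factor precursor, was at 6797, 2182, 1101 and 823 at 0, 10, 20 and 30 min (-0.99). MFA2 went from 2373 to 1580 (-0.59) and the agglutinin gene AGA2 from 375 to 244 (-0.62). FUS1, a cell fusion gene, went from 516 at 0 min to 105 at 10 min and 95.7 at 20 min (-0.14 from 10 to 20 min). From 10 to 20 min the list was thus lower at small sizes of change except for a few genes. Of 18 genes of the M/G1 boundary, 14 were lower (median -0.19). PIR3 (61.7 to 30.2, -1.004) and HSP150 (857 to 463, -0.89), which encode cell wall proteins of the PIR family, and DSE2, a daughter cell glucanase gene (125 to 67.2, -0.88), led them, whereas CIS3, a gene of the same PIR family, was higher (532 to 879, 0.72).

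Among the higher genes outside the cell cycle, STR3, which encodes cystathionine beta-lyase of methionine synthesis, had the largest rise of all genes (36.9, 13.9, 50.1 and 103 at 0, 10, 20 and 30 min, log2 change 1.78). The methionine list as a whole was at a median of 0.04, with 9 of 17 genes higher. FET3, the iron oxidase gene, went from 88.5 to 212 (1.25) and FRE1, a ferric reductase gene, from 98.9 to 207 (1.06). In a list of 19 iron and copper uptake genes put together after the values were seen, 17 were higher (median 0.39) and 7 passed 1.5-fold. SUR7, a gene of the plasma membrane domains called eisosomes, went from 25.1 to 62.1 (1.27), and AIM34 went from 16.8 to 37.3 (1.11).

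The next entry into S phase allowed the same genes to be read in other libraries. Of the 18 genes at least 2-fold higher from 10 to 20 min, 11 (61.1%) were higher from 70 to 80 min, against 31.8% of all genes, with a median log2 change of 0.32 against -0.09. Of the 33 genes at least 2-fold lower, 19 (57.6%) were lower again, against 68% of all genes, with a median of -0.06. By size, however, 7 of the 33 were at least 1.5-fold lower, against 1.72% of all genes, and from 70 to 90 min 24 of the 33 (72.7%) were lower, against 62.9%, with a median of -0.24 against -0.08. The reading of the lower genes as a group thus depends on the interval and the limit taken. Over all 5590 genes, Spearman's rho between the changes of the 2 intervals was 0.22, a description across genes that share libraries and depth.

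The groups separated at the second entry. All 8 core histone genes were higher again (median 0.80), HTA2 from 681 to 1477 (1.12) and HHF1 from 1386 to 2223 (0.68). YHP1 (19.2 to 31.8, 0.70), AIM34 (17.9 to 32.6, 0.83) and TIR1, a cell wall mannoprotein gene (15.6 to 36.7, 1.19), were higher as well. CLB1 (61.0 to 46.4, -0.39), CLB2 (68.1 to 45.8, -0.56), SWI5 (21.6 to 16.2, -0.39) and BUD4 (24.02 to 21.64, -0.14) were lower. At 70 min the values of these 4 genes were several times those at 10 min. Of the 15 G2/M genes, 1 was higher and 14 were lower from 70 to 80 min (median -0.49, against -0.09 for all genes). The study describes a gradual loss of cell synchrony by the second cycle, and its part in these values was not tested. From 70 to 90 min, all 18 genes that were 2-fold higher at the first entry were higher (median 0.59), against 36.9% of all genes.

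The lower genes divided at the second entry. Those named here from the cell cycle lists were lower again, and genes outside these lists went either way. CLB6 (61.7 to 31.4, -0.95), MSA2 (21.7 to 11.0, -0.92), MCM7 (70.3 to 42.1, -0.73), YGP1 (150 to 76.9, -0.96) and NCA3 (20.7 to 9.83, -0.999) were lower again, and MCM2 to MCM7 were all lower (median -0.65). ALD4 (28.1 to 32.1, 0.18), ALD6 (718 to 657, -0.13), PDH1 (8.49 to 8.59, 0.02) and PGM2 (17.5 to 17.8, 0.02) stayed close to their 70 min values, which were far below those at 10 min. Of the 10 acetate and propionate genes, 9 were higher from 70 to 80 min and 1 was lower (median 0.15, against -0.09 for all genes). DIP5 was higher (90.0 to 122, 0.43). The 33 genes thus held some that were lower at both entries and some that were lower at the first entry only in these values, a difference that was not tested.

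**Figure D3:**
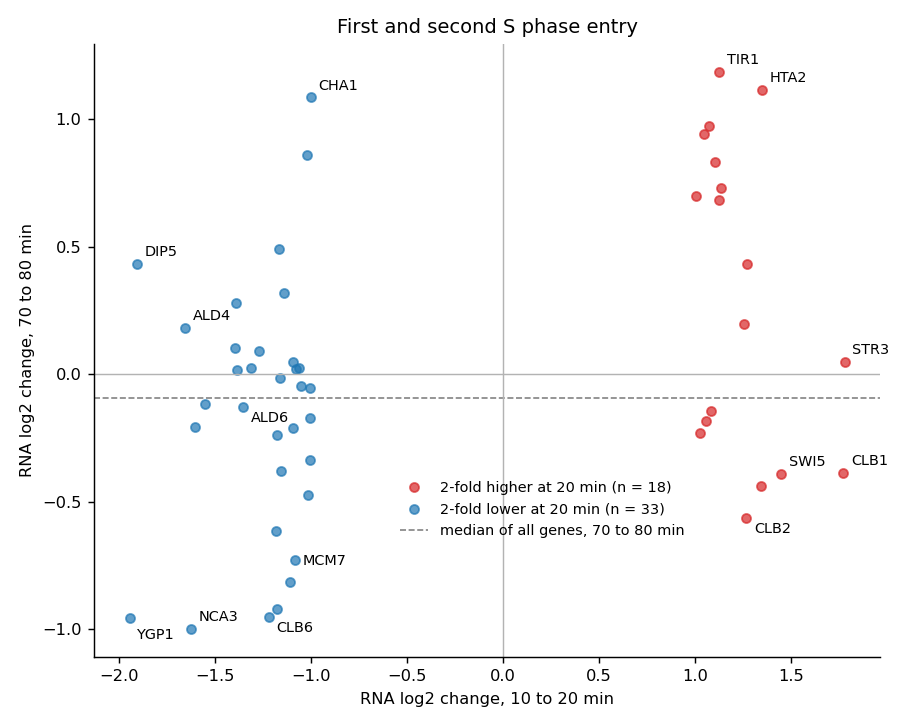
RNA log2 change from 70 to 80 min (y axis) against that from 10 to 20 min (x axis) for the 18 genes at least 2-fold higher (red) and the 33 at least 2-fold lower (blue), 1 point per gene, with the 70 to 80 min median of all genes (-0.09) dashed. HTA2 and TIR1 lie high in both, CLB1, CLB2 and SWI5 lie below the dashed line, and YGP1, NCA3 and CLB6 lie lowest.

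The gene-body chromatin was read by the Shannon entropy of the nucleosome signal, which is low where nucleosomes sit at fixed positions and high where they are disordered. Replication forks displace nucleosomes, and the new DNA is repackaged behind them. Entropy was higher at 20 than at 10 min in 4373 genes (78.2%), and its median went from 5.79 to 5.84, with a median change per gene of 0.038. It was over 0.1 higher in 750 genes (13.4%) and over 0.1 lower in 43 (0.769%). The rise was not particular to this step. From 0 to 10 min entropy was higher in 78.5% of genes, by a median of 0.043, with 966 genes over 0.1 higher. From 20 to 30 min it was higher in 63.0%, by 0.019. Both steps share a column with this one, and that from 0 to 10 min spans 20 min in replicate 1. From 70 to 80 min it was higher in 4726 genes (84.5%), by a median of 0.039. Across genes, rho between the changes of the 2 intervals was 0.29.

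The change varied with the position of a gene. For 1386 genes with their midpoint within 5 kb of the nearest of the 352 annotated origins, the median change was 0.043, and 80.3% were higher. It was 0.044 at 5 to 10 kb and 0.047 at 10 to 15 kb, so within 15 kb it did not decline. Beyond that it was 0.035 at 15 to 20 kb, 0.025 at 20 to 25 kb, 0.027 at 25 to 30 kb and 0.023 over 30 kb from an origin, where 70.2% were higher. Over 5036 genes within 30 kb, rho with distance was -0.11. From 70 to 80 min the medians lay between 0.031 and 0.042 in all distance groups and rho was -0.01. For the neighbouring steps rho was -0.03 from 0 to 10 min and 0.34 from 20 to 30 min. The relation with distance was a weak one across genes that share libraries and neighbours.

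**Figure D4:**
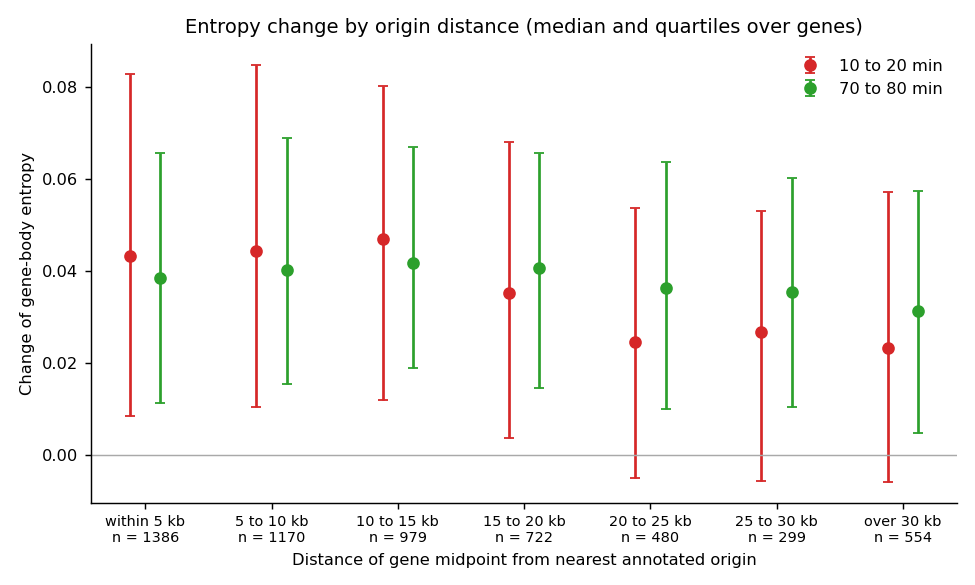
Change of gene-body entropy (y axis) by distance of the gene midpoint from the nearest annotated origin (x axis, n genes per group) for 10 to 20 min (red) and 70 to 80 min (green); points are medians and bars reach from the lower to the upper quartile over genes. The red medians are at or above 0.043 up to 15 kb and between 0.023 and 0.027 beyond 20 kb, and the quartiles of all groups overlap.

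Direction of transcription relative to the nearest origin also went with the change, but not in every distance group. Within 15 kb, the 1829 genes transcribed towards the origin had a median change of 0.050, against 0.039 for the 1706 transcribed away from it. Within 5 kb the medians were 0.048 and 0.036, at 5 to 10 kb 0.051 and 0.038, and at 10 to 15 kb 0.051 and 0.043. At 15 to 20 kb they were nearly equal (0.036 and 0.035), and at 20 to 25 kb the order was reversed (0.017 and 0.031). At 25 to 30 kb they were 0.029 and 0.025, and over 30 kb 0.026 and 0.020. For 70 to 80 min the medians were 0.043 and 0.037 within 15 kb. In the 317 genes less than 20 kb away from a centromere the median change was 0.066, against 0.037 for the rest. They lie close to origins (median 5306 bp), but among genes within 10 kb of an origin the medians were still 0.058 for 253 genes near a centromere and 0.042 for 2303 others. Medians of the 16 chromosomes lay between 0.030 and 0.051.

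Single genes moved further. AIM34 on chromosome XIII had an entropy of 5.30 at 10 min and 5.65 at 20 min, a change of 0.35, and was 0.16 higher again from 70 to 80 min. It is also among the 18 genes with higher RNA. YML083C (5.47 to 5.82, 0.35) and YDL186W (5.44 to 5.77, 0.34) had RNA values at or below 1. PAU10, of a family of near-identical genes near chromosome ends, had the largest change (4.31 to 4.83, 0.52), and unique mapping makes its value uncertain.

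On the lower side, the cell wall gene HSP150 went from 5.97 to 5.75 (-0.22), YML131W from 5.93 to 5.76 (-0.17) and GPA1, the G protein subunit gene of the pheromone pathway, from 6.01 to 5.86 (-0.15). In each of these 3 the RNA was lower too, by -0.89, -0.60 and -0.56, as it was in 58.4% of all genes. Of the 43 genes over 0.1 lower in entropy, 7 (16.3%) had RNA at least 1.5-fold lower, against 2.68% of all genes. In 1 of the 43, HHF2, it was at least 1.5-fold higher. From 70 to 80 min the entropy of HSP150 and GPA1 changed by -0.02 each and that of YML131W by 0.08, while over all genes the entropy was higher at both entries. HXT6 had the lowest value (3.53 to 3.24, -0.29), but it is nearly identical to HXT7, and little signal maps to it.

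The gene-body nucleosome score, which gives the level of nucleosome-sized protection, changed little over all genes (median log2 change 0.004, 51.7% higher). It was over 0.25 higher in 121 genes (2.16%) and over 0.25 lower in 42 (0.751%). Its median change was 0.021 within 5 kb of an origin and between -0.008 and 0.005 in the other distance groups. By the methods of the study, nucleosome scores were divided at each position by a copy number estimated against arrested cells. What remains of copy number in this difference was not tested. YJL171C, 731 bp from ARS1006, had the largest rise (0.0311 to 0.0464, 0.58), followed by NDJ1 (0.52), TOS6 (0.50) and the thioredoxin gene TRX1 (0.45), which lies 558 bp from ARS1211. RNA of YJL171C, TOS6 and TRX1 changed by 0.05, -0.05 and -0.02. SRL1, a cell wall gene and SBF target with RNA that was higher (217 to 284), was lower in score (0.0506 to 0.0356, -0.50). The other largest falls were those of the short gene YDR003W-A (-0.53), GTT3 (-0.39) and SRO7 (-0.33).

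The promoter subnucleosome score is taken here, from its name alone, to reflect short protected fragments before the gene, such as bound factors may leave. Centred on the median of all promoters, it was over 0.5 higher in 11 genes (0.197%) and over 0.5 lower in 16 (0.286%). None of these calls remained (0 and 0) when the value at the lowest 10% was added as a pseudocount, a limit that holds for each gene named from them. NCA3 (0.0221 to 0.0138, -0.67), ALD6 (0.0366 to 0.0231, -0.66), HIF1, a histone chaperone gene (0.0181 to 0.0116, -0.64), and DIP5 (0.0278 to 0.0183, -0.60) were lowest. NCA3, ALD6 and DIP5 are the only ones of the 16 (18.8%) that are also among the 33 genes with 2-fold lower RNA (9.09%), whereas the RNA of HIF1 changed by 0.04. On the other side, the meiotic gene MEI4 (0.0077 to 0.0127, 0.73), YHL012W (0.58), SWF1 (0.52) and TFB2 (0.52) were highest after the 10% of promoters with the lowest mean score were left out. Their RNA changed by 0.58, 0.23, 0.15 and 0.11, from 10 min values of 3.60, 0.200, 15.5 and 48.1. Of the 18 genes with 2-fold higher RNA, CLB1 (0.0152 to 0.0215, 0.51) and TIR1 (0.85, among the 10% with the lowest mean score) passed 0.5, and FRE1 (0.50), HHF1 (0.49), HTA1 (0.41) and HTA2 (0.41) were just below. With distance from origins the median promoter change went from -0.027 within 5 kb to 0.046 at 25 to 30 kb (rho 0.14).

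Genes with opposite RNA changes had different medians in all 3 chromatin measures, with overlapping ranges and no test possible. The 18 genes with RNA at least 2-fold higher had a median entropy change of 0.069, with 17 higher, and the 33 at least 2-fold lower had a median of -0.003, with 15 higher. For 4615 genes with RNA within 1.2-fold it was 0.039, and 79.5% were higher. The excess of the higher genes, 0.030, fell to 0.007 at 1.5-fold, where 46 of 57 (80.7%) were higher, against 78.2% of all genes, and likewise to 0.007 for genes of at least 1000 bp. The nucleosome score had a median log2 change of 0.064 in the lower genes, with 23 of 33 (69.7%) higher. In the higher genes it was -0.005, with 8 of 18 (44.4%) higher, near the 51.7% of all genes. The promoter score was above the median of all promoters in 14 of the 18 (median 0.13) and in 8 of the 33 (median -0.09), against 50% of all. The promoter difference of the higher genes from genes within 1.2-fold, 0.13, was 0.057 without the core histone genes. Both groups lay nearer to origins (median distances 8119 and 7148 bp) than all genes (11159 bp). Over all genes, rho of the RNA change was 0.10 with entropy, -0.09 with the nucleosome score and 0.09 with the promoter score, each of them weak.

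Within the histone genes the chromatin was not uniform. The promoter score was above the median in 7 of 8, by 0.49 at HHF1, 0.41 at HTA1 and HTA2, 0.32 at HTB2 and 0.02 at HHT1, and it was -0.10 at HHF2. Gene-body entropy was 0.19 higher at HHF1, whose midpoint is 488 bp from ARS209, and 0.11 lower at HHF2. Of the 6 MCM genes, 3 were higher in entropy, against 78.2% of all genes. In nucleosome score 5 of them were higher (MCM7 by 0.24), against 51.7% of all genes, with MCM3 at -0.15. CLB6 had a nucleosome score 0.26 higher and CLB1 0.14 lower.

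**Figure D5:**
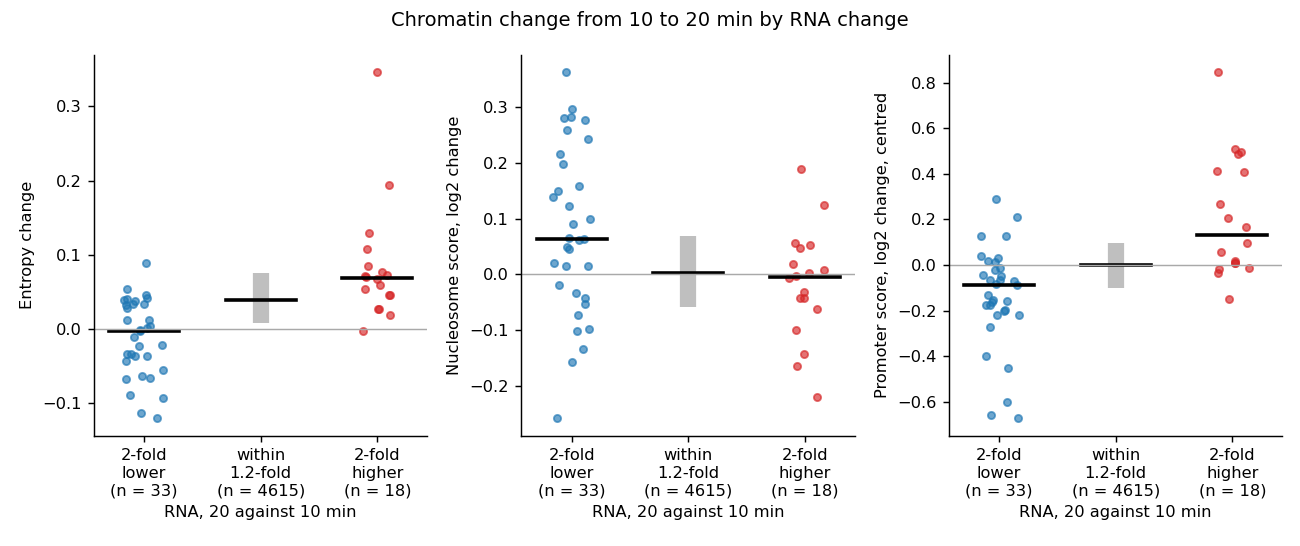
Change from 10 to 20 min of entropy, nucleosome score (log2) and centred promoter score (log2) for genes with RNA at least 2-fold lower (blue), within 1.2-fold (grey bar, lower to upper quartile of 4615 genes) and at least 2-fold higher (red), 1 point per gene, with black medians. Entropy medians are -0.003, 0.039 and 0.069 (0.046 for the 57 genes at least 1.5-fold higher, not drawn), and the points of the groups overlap in every panel.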

How the data were processed

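All 4 tables were deposited by the authors with 1 merged column for each of 15 aligned time points, and their values were treated as a score. RNA values, named TPM by the authors, came from stranded total RNA-seq. MNase-seq reads were aligned by the authors with Bowtie 0.12.7 to R64 and subsampled to equal numbers per fragment length, so depth per gene is unknown. Entropy measures, on Shannon's formula, how evenly the nucleosome score spreads over a gene body. Per the study's methods, nucleosome scores were divided by copy number. How the promoter score was made is not given under that name. The study's methods describe a small fragment occupancy, divided by copy number and scaled on binding sites of the factor Abf1p. Whether the promoter score is this measure is not stated. The RNA table held 289 zeros in 44 genes.

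RNA changes were log2 ratios of value plus 1, promoter changes were log2 ratios minus the median over genes, nucleosome score changes were log2 ratios, and entropy changes were differences. Thresholds were 2-fold, 0.5, 0.25 and 0.1. Genes named were members of 24 lists, the 12 largest RNA changes each way with a value of at least 20, and the 4 largest changes each way of each chromatin measure, the lowest 10% by mean score left out for the nucleosome and promoter scores. Members and lists were chosen with earlier results of these data known, and 3 lists were added after the values were seen. PHO11 and PHO12 of the phosphate list were not analysed here. Origins, centromeres and the 250-base windows came from the R64 reference, whose coordinates match 5579 genes exactly. The windows replace promoter tables that had been planned. For 488 genes the transcript start equals the coding start. Python 3.11.15, numpy 2.4.6, scipy 1.17.1, pandas 2.3.3 and matplotlib 3.10.9 were used, and scripts were tested on simulated data. Alternatives were other pseudocounts, scalings, filters, thresholds, gene sets and distances. The values of 1 G2/M gene, which is in the counts of its list, and 1 further promoter element are not reported here.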

Additional observations from a re-analysis of the deposited data

Results flagged for a closer look

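CHA1, which encodes the serine and threonine deaminase, moved in opposite directions at the 2 entries into S phase. It was at 114 at 10 min and 56.3 at 20 min (log2 change -1.001), and at 34.3 at 70 min and 73.9 at 80 min (log2 change 1.09). The difference between the intervals was not tested, since each time point is 1 merged value. CHA1 is also the gene nearest to the 2-fold limit on the lower side.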

How the results depend on the processing

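No paired analysis was possible because both replicates of a time point share 1 column, which also kept single replicates from being left out. Of 79 alternative values, 52 stayed within 1.5 times of the value reported. Some of these could not move, so the count overstates stability. The lower genes hold no core histone gene to leave out, and a z-score per gene keeps the direction of an entropy change. The counts of genes 2-fold higher (18) and lower (33) became 30 and 41 with a pseudocount of 0.1, 11 and 19 with 5, 57 and 150 at 1.5-fold, and 2 and 5 at 3-fold. Centring or upper-quartile scaling gave 19 and 27, with a median shift of 0.04 on the log2 scale or less. Promoter counts (11 and 16) became 6 and 10 without the lowest 10% by mean, 0 and 2 at a threshold of 1, and 0 and 0 with the value at the lowest 10% as pseudocount. Nucleosome score counts (121 and 42) became 5 and 4 at 0.5, and the lower count became 27 without the lowest 10%.

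Within 15 kb of an origin, rho of entropy with distance was 0.011, in place of -0.11 within 30 kb, and the median within 5 kb minus that at 10 to 15 kb was -0.00355, in place of 0.017 against 25 to 30 kb. The relation thus depends on genes beyond 15 kb. The median entropy change of genes with 2-fold higher RNA minus that of genes within 1.2-fold, 0.030, was 0.00736 at 1.5-fold and 0.00716 for genes of at least 1000 bp. For the nucleosome score the same difference, -0.007, was -0.045 and -0.035. For lower RNA, the nucleosome score difference of 0.062 was 0.12 for genes of at least 1000 bp, and the promoter difference of -0.091 was -0.16 with a mean RNA of at least 10 and -0.15 for genes of at least 1000 bp. The promoter difference for higher RNA, 0.13, was 0.057 without core histone genes, an alternative added after the values were seen. The cause of these shifts was not tested. From 70 to 90 min, 100% of the 18 higher genes were higher, in place of 61.1%, and 72.7% of the 33 lower genes were lower, in place of 57.6%, which puts them above the share of all genes (62.9%) and not below it (68%).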

Other observations

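Genes of ribosome production had small and even changes. Of 136 genes taken as ribosomal protein genes by name, 133 were higher at 20 than at 10 min. Their median log2 change was only 0.15, and none passed 1.5-fold. The name match also took in RPP1 (0.06), which encodes a subunit of RNase P and not a ribosomal protein. From 70 to 80 min, 89 of the 136 were lower (median -0.07). Of 22 ribosome biogenesis genes, 15 were higher (median 0.10), and DBP2, an RNA helicase gene, had the largest change (159 to 248, 0.64). From 70 to 80 min, 20 of the 22 were lower (median -0.26). Of 12 measured phosphate genes, 6 were higher and 6 lower, and PHO84, the phosphate transporter gene, was at 1058 and 1062. Of 21 bud site, septin and cell wall genes, 14 were higher (median 0.07), led by the glucan-modifying gene GAS3 (68.1 to 110, 0.68). Of 9 regulators of the cyclin-dependent kinase, 6 were lower (median -0.09), near the 58.4% of all genes, and CDC28 itself was at 122 and 123.

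Entropy change varied with the level of RNA. In the 1118 genes with the most RNA at 10 min the median entropy change was 0.027, with 70.3% higher, and in the other 4 groups of 1118 genes it lay between 0.037 and 0.043. By gene length it lay between 0.033 for the shortest 1118 and 0.039. By entropy at 10 min it was 0.051 in the lowest 1118 and 0.013 in the highest, a split in which the 10 min value enters both measures. Among the 11 promoters with a score over 0.5 higher, SIT1, a siderophore transporter gene of the iron list, joined CLB1 and TIR1 as genes with RNA at least 1.5-fold higher (33.9 to 63.8), and its gene-body nucleosome score was 0.30 lower.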
